A study of Mus musculus with 8 samples.

Results

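Saa1, Saa2, Saa3, Hp, Ahsg, Trf, Lcn2, Clu and Rarres2 encode acute-phase and plasma proteins and were 9 of the 52636 genes in the count table. They were chosen by measured values, namely their high levels in dKO libraries, so the dKO and WT levels below are a description and carry no test. The cells were mouse liver endothelial cells grown in culture, 2 libraries in each of 4 groups: dKO cells without added cytokines, WT cells without added cytokines, dKO cells with IL1B and TNFA, and WT cells with IL1B and TNFA. The study's design names deletion of Erg, Fli1 or both, 2 ETS transcription factors of endothelial cells, brought about by 4-OHT (an active tamoxifen metabolite) for 48 hours, with 7 days of culture. The cytokines were given for 16 hours before lysis. The labels do not spell out dKO or name a Cre driver, and they give the same 4-OHT note, which speaks of treated mice, for dKO and WT samples alike. Cells were sorted as live, CD45-, CD31+ and VE-cadherin+. No label says whether replicates are separate animals, so the p-values speak only to how these samples spread, which may be technical.

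In the acute-phase response the liver changes the set of proteins it secretes into plasma when inflammation or injury is sensed. IL-6 acts on hepatocytes through STAT3, and IL-1 and TNF act through NF-kB, with C/EBP factors taking part at many of the target promoters. Hepatocytes are the main source of most of these proteins, and several, among them SAA3, lipocalin 2 and clusterin, are also made outside the liver by stromal, epithelial and myeloid cells.

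Library totals ran from 23009062 to 26944030 counts, and levels are in CPM, counts scaled to a common library size after TMM normalization. Erg had 40.1 and 91.4 CPM in dKO cells, against 195.9 and 186.2 CPM in WT cells, and Fli1 had 21.9 and 62.5 CPM in dKO cells, against 161.2 and 177.4 CPM in WT cells. The summed level of 20 endothelial markers was 1947 to 4518 CPM in dKO cells, against 11844 to 12144 CPM in WT cells. In bulk RNA, fewer cells of a type and less RNA per cell cannot be told apart. Of 23 hepatocyte markers, 9 had 0 counts in all 8 libraries, among them Hnf4a, Ttr, Cyp2e1 and Apoc3, and Alb had 2 counts in all, both in 1 dKO library with cytokines. Their summed level was 4.87 to 7.82 CPM in dKO cells, against 2.25 to 2.66 CPM in WT cells.

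**Figure D1:**
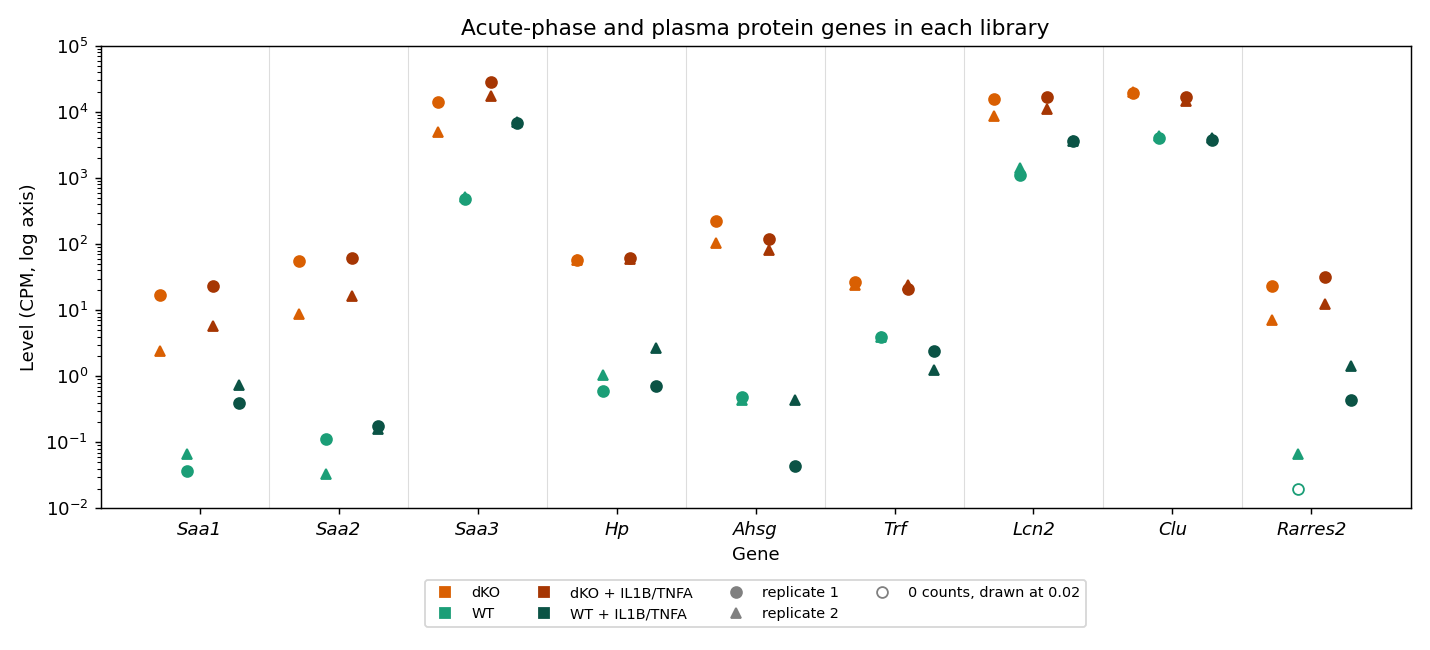
Level of each of the 9 genes in each library, in CPM on a log axis; each point is 1 library, circles are replicate 1 and triangles replicate 2. Within each gene the groups run dKO, WT, dKO with IL1B and TNFA, WT with IL1B and TNFA. The dKO points lie above the WT points for all 9 genes, and replicate 1 of dKO lies well above replicate 2 for Saa1, Saa2, Saa3 and Rarres2.

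The serum amyloid A genes stand in 1 cluster on chromosome 7 of GRCm38. Saa1 (ENSMUSG00000074115, 46740497 to 46742980, minus strand) and Saa2 (ENSMUSG00000057465, 46751790 to 46754313, plus strand) encode the main SAA proteins of plasma, which bind to high-density lipoprotein. Saa3 (ENSMUSG00000040026, 46711998 to 46715700, minus strand) encodes the form made mainly outside hepatocytes in mice. The sequences before the start of the 3 genes are shown because Saa1 and Saa2 share nearly all of theirs while Saa3 does not, and their levels are compared next. They are from RefSeq (GRCm38.p6), Saa1 chr7:46742981-46743230 on the minus strand, Saa2 chr7:46751583-46751789 on the plus strand and Saa3 chr7:46715701-46715926 on the minus strand, 5′ to 3′ and up to the first annotated UTR. Capitals mark matches to TTGCNNAA, letters of C/EBP sites, on either strand.
Saa1: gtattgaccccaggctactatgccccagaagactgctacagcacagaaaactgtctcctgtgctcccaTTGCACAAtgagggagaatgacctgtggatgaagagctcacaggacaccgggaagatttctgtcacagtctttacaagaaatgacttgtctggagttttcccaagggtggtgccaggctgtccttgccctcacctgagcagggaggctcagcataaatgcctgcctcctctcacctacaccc
Saa2: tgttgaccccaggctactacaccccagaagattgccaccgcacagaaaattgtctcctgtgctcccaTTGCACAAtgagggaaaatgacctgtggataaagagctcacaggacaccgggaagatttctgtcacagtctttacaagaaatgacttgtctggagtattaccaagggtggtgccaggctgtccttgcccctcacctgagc
Saa3: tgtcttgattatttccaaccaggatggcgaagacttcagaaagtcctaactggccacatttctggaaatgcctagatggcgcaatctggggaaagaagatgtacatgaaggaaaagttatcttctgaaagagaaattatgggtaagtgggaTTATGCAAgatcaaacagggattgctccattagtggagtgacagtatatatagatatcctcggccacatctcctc
Over the 250 bases before the start, Saa1 and Saa2 were identical at 238 of 251 aligned positions (94.8%), Saa1 and Saa3 at 48.5%, and Saa2 and Saa3 at 47.8%.

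Saa3 had 14140 and 4899.0 CPM in dKO cells, against 480.3 and 509.3 CPM in WT cells. The ratio of the means was 19.2, and both dKO libraries lay above both WT libraries. With cytokines Saa3 had 28537 and 17732 CPM in dKO cells, against 6849 and 7105 CPM in WT cells, a ratio of 3.32. By RPKM, which divides CPM by length in kilobases, Saa3 ranked 1st and 2nd among all genes in the dKO libraries with cytokines.
Saa1 had 16.9 and 2.45 CPM in dKO cells, against 0.0369 and 0.0674 CPM in WT cells, where the group held 3 counts. From the summed counts the ratio was 178.5, with a 95% interval from 60.7 to 868.7 that covers counting error only.
Saa2 had 56.1 and 8.90 CPM in dKO cells, against 0.111 and 0.0337 CPM in WT cells, and the ratio of the means was 449.8, resting on 4 counts in WT. Both genes were thus near 0 in WT cells and differed several-fold between the dKO libraries. Reads of these paralogs can be shared: 13.2% of the 560 stretches of 50 bases in the Saa1 transcript also occur in Saa2 and 1.61% in Saa3, while none of Saa2 occurs in Saa3. Per 100000 Saa3 counts there were 119.8 and 50.1 Saa1 counts in dKO cells, against 7.69 and 13.2 in WT cells. For Saa2 the numbers were 396.6 and 181.6 in dKO cells, against 23.1 and 6.62 in WT cells, so the share relative to Saa3 was higher in both dKO libraries for both genes.

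Lcn2 (ENSMUSG00000026822, chromosome 2, 32384633 to 32388252, minus strand) encodes lipocalin 2, which binds bacterial siderophores and withholds their iron. It had 15630 and 8556 CPM in dKO cells, against 1112 and 1440 CPM in WT cells, a ratio of 9.48. With cytokines it had 16925 and 11244 CPM in dKO cells, against 3639 and 3695 CPM in WT cells, a ratio of 3.84. Clu (ENSMUSG00000022037, chromosome 14, 65968483 to 65981547, plus strand) encodes clusterin, an extracellular chaperone carried in plasma. It had 19521 and 19835 CPM in dKO cells, against 4104 and 4389 CPM in WT cells, a ratio of 4.63. With cytokines it had 16668 and 14879 CPM in dKO cells, against 3829 and 4007 CPM in WT cells, a ratio of 4.03. Clu was thus high in every library, and its dKO libraries lay close together.

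Hp (ENSMUSG00000031722, chromosome 8, 109575128 to 109579172, minus strand) encodes haptoglobin, which binds free haemoglobin. It had 56.9 and 57.2 CPM in dKO cells, against 0.591 and 1.04 CPM in WT cells, a ratio of 69.8. Trf (ENSMUSG00000032554, chromosome 9, 103204001 to 103230444, minus strand) encodes transferrin, the iron carrier of plasma. It had 26.5 and 24.5 CPM in dKO cells, against 3.95 and 3.98 CPM in WT cells, a ratio of 6.43. For both genes the dKO libraries were close to each other and far from WT. Gm20425, annotated on the same strand as Trf, covers 63.5% of its exon bases and had 0 counts in all libraries.
Ahsg (ENSMUSG00000022868, chromosome 16, 22891277 to 22899449, plus strand) encodes fetuin-A, an inhibitor of calcification that falls in plasma during the acute phase. It had 225.8 and 104.9 CPM in dKO cells, against 0.480 and 0.438 CPM in WT cells, a ratio of 360.2. Rarres2 (ENSMUSG00000009281, chromosome 6, 48569696 to 48572789, minus strand) encodes chemerin, a chemoattractant for leukocytes. It had 23.5 and 7.03 CPM in dKO cells, against 0 and 0.0674 CPM in WT cells, where the group held 2 counts. The ratio was 424.7, with a 95% counting interval from 117.1 to 3514. Lrrc61, on the opposite strand, covers 33.6% of the exon bases of Rarres2 and had 6.13 to 9.13 CPM in every library, so counts of Rarres2 are uncertain where strand was not used.

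All 9 genes were higher in both dKO libraries than in both WT libraries, without and with cytokines. Among the 15698 genes tested, 35.9% did the same without cytokines and 37.2% with them; the choice of the 9 genes fixes this direction. With cytokines the ratios of dKO to WT were 25.1 for Saa1, 235.2 for Saa2, 35.9 for Hp, 420.3 for Ahsg, 12.4 for Trf and 23.3 for Rarres2.

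The other 2 windows, Ahsg chr16:22891765-22892014 on the plus strand and Lcn2 chr2:32387798-32387989 on the minus strand, are shown because they hold the same short letters as the Saa windows. Both stand before a RefSeq start that lies inside the gene span given above. These 2 windows are thus within the annotated genes and not before them, unlike those of the Saa genes.
Ahsg: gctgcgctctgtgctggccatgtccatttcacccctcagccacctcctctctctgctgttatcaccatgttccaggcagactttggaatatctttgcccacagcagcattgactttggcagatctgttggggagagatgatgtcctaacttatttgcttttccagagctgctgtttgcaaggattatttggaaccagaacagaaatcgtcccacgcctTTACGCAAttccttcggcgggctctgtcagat
Lcn2: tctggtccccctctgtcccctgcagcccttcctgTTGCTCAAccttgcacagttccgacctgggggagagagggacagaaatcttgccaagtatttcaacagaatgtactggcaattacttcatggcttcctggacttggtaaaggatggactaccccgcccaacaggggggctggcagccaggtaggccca
TTGCNNAA was present once in each of the 5 windows of 250 bases, and in 9.56% of 32851 such windows of mouse genes. These letters were settled on after the sequences had been read, so the count is a description. A match to the NF-kB consensus was present in 0 of the 5 windows, against 7.25% of all windows, and AGGAAG, letters of ETS sites, was present in Lcn2 alone, 3 times, against 29.5% of all windows. TATAAA was in 0 of the 5, against 12.4% of all windows. No TTGCNNAA match overlapped an AGGAAG match.

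Together the 9 genes took 4.83% and 3.50% of all counts in dKO libraries, against 0.647% and 0.699% in WT libraries. With cytokines they took 5.58% and 4.15% in dKO libraries, against 1.36% and 1.45% in WT libraries. Saa3, Lcn2 and Clu made up nearly all of this, and the other 6 genes held 0.0395% and 0.0214% in dKO libraries, against 0.000587% and 0.000620% in WT libraries. Per length, the order in WT cells was Clu (2268 and 2425 RPKM over the principal transcript), Lcn2 (1215 and 1574 RPKM) and Saa3 (865.4 and 917.7 RPKM). In WT cells with cytokines the order was Saa3 (12341 and 12802 RPKM), Lcn2 (3977 and 4038 RPKM) and Clu (2115 and 2213 RPKM). Libraries of neighbouring genes did not overlap in either group, and over the union of all annotated exons the order in both groups was the same. In dKO cells the 3 genes overlapped, with Saa3 at 25478 and 8827 RPKM, Lcn2 at 17082 and 9350 RPKM and Clu at 10785 and 10959 RPKM.

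**Figure D2:**
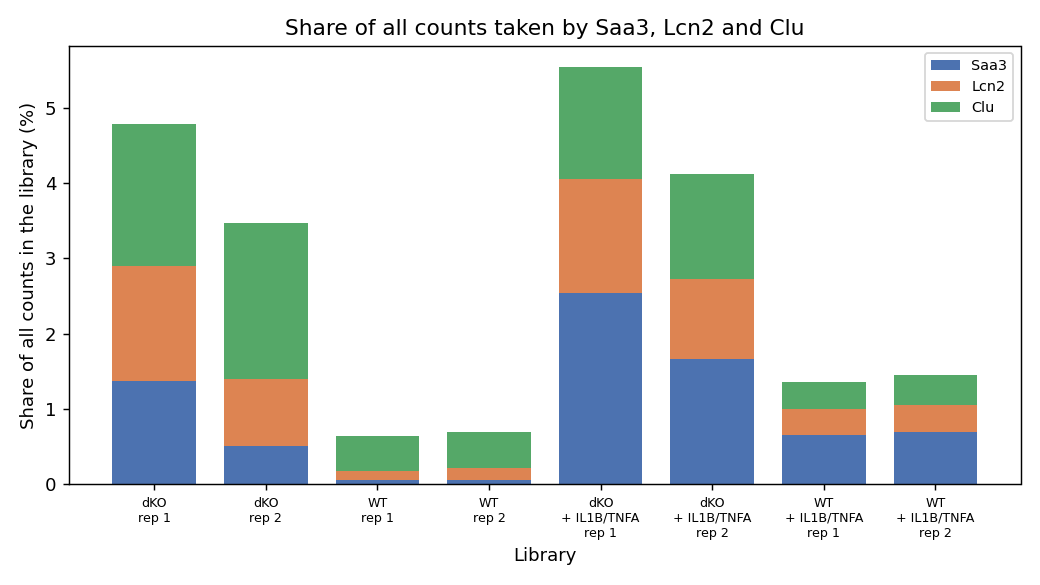
Share of all counts in each library, in percent, taken by Saa3, Lcn2 and Clu; each stacked bar is 1 library. Saa3 takes 1.38% and 0.511% in dKO cells and 2.55% and 1.67% in dKO cells with cytokines, against 0.0545% and 0.0561% in WT cells and 0.652% and 0.697% in WT cells with cytokines.

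The 2 dKO libraries differed from each other for some of these genes and not for others. Without cytokines replicate 1 was 6.91 times replicate 2 for Saa1, 6.30 for Saa2, 3.35 for Rarres2, 2.89 for Saa3, 2.15 for Ahsg and 1.83 for Lcn2. The ratio was 1.08 for Trf, 0.995 for Hp and 0.984 for Clu. With cytokines it was 3.96 for Saa1, 3.81 for Saa2, 2.61 for Rarres2, 1.61 for Saa3, 1.45 for Ahsg and 1.505 for Lcn2. Replicate 1 also had the lower Erg and Fli1 of the 2 dKO libraries, and Cdh5, the VE-cadherin gene, had 163.3 CPM there and 587.4 CPM in replicate 2. The part of these levels in the difference was not tested. Without dKO replicate 1 the ratio of mean CPM in dKO to WT cells was 123.1 for Saa2 (449.8 with it), 9.90 for Saa3 (19.2 with it) and 228.5 for Ahsg (360.2 with it). For Saa1 it was 47.0 (185.9 with it) and for Rarres2 208.5 (452.9 with it), both against the few WT counts given above.

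In WT cells IL1B and TNFA raised Saa3 and Lcn2 and lowered Trf, by edgeR's quasi-likelihood test at an adjusted p of 0.05 over all 15698 genes; 17.4% of all genes passed, 9.72% rising and 7.69% falling. The median log2 fold change was 1.18 over the 9 genes and -0.01 over all genes. That median is the value of Saa2 (SE 2.52), which rests on 8 counts with cytokines and 4 without, so it does not describe the 9 genes as a set. Saa3 had 6849 and 7105 CPM with cytokines, against 480.3 and 509.3 CPM without, a log2 fold change of 3.82 (SE 0.54, adjusted p = 0.00838). Both treated libraries were about equally high. The call was lost without WT replicate 1 (adjusted p = 0.0791) or WT replicate 2 (adjusted p = 0.0722), though the log2 fold change stayed at 3.77 and 3.86.
Lcn2 had 3639 and 3695 CPM with cytokines, against 1112 and 1440 CPM without (log2 fold change 1.52, SE 0.34, adjusted p = 0.0288). Its call was lost without any 1 of WT replicate 1 (adjusted p = 0.172), WT replicate 2 (adjusted p = 0.114), the treated WT replicate 1 (adjusted p = 0.127) or the treated WT replicate 2 (adjusted p = 0.114).
Trf fell to 2.38 and 1.26 CPM with cytokines, against 3.95 and 3.98 CPM without (log2 fold change -1.13, SE 0.28, adjusted p = 0.0371). This call was kept in 2 of 8 fits that left out 1 library, those without the treated WT replicate 1 (adjusted p = 0.019) or the treated dKO replicate 2 (adjusted p = 0.0496).

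The other 6 genes did not pass in WT cells. Rarres2 had 0.441 and 1.45 CPM with cytokines, against 0 and 0.0674 CPM without, which is 27.7-fold, counting interval 7.25 to 235.4 (adjusted p = 0.0982). Saa1 had 0.397 and 0.746 CPM with cytokines, against 0.0369 and 0.0674 CPM without, which is 11-fold, counting interval 3.40 to 56.5 (adjusted p = 0.249). Saa2 (adjusted p = 0.791), Hp (adjusted p = 0.277) and Ahsg (adjusted p = 0.578) had log2 fold changes of 1.18, 1.05 and -0.88, on few counts. Clu, with 3829 and 4007 CPM with cytokines, against 4104 and 4389 CPM without, had a log2 fold change of -0.12 (SE 0.15, adjusted p = 0.641). With the replicate number as a block within each genotype, 6 of the 9 genes passed, where 37.9% of all genes did: Rarres2 (adjusted p = 0.000567), Saa1 (adjusted p = 0.00583) and Hp (adjusted p = 0.0164) were added. DESeq2 called 5 of the 9, where it called 23.3% of the genes it tested.

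**Figure D3:**
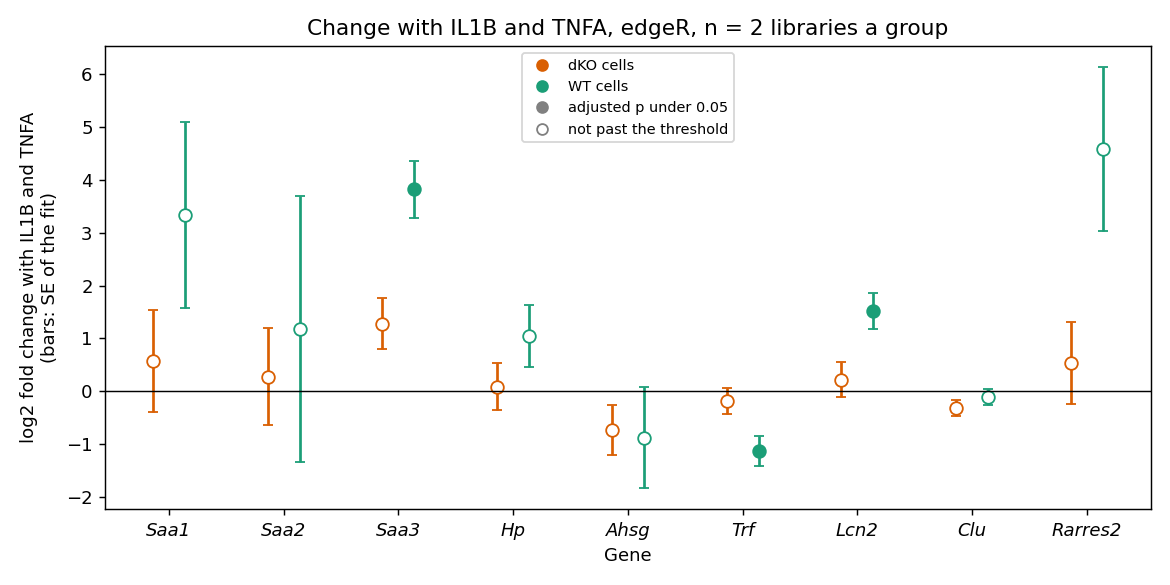
log2 fold change with IL1B and TNFA for each gene in dKO cells (left point) and WT cells (right point), from edgeR with 2 libraries a group; bars are the standard error of the fit and filled points have an adjusted p under 0.05. Saa3, Lcn2 and Trf are filled in WT cells, at 3.82, 1.52 and -1.13, and no point is filled in dKO cells.

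In dKO cells 0 of the 9 genes passed in edgeR, where 5.55% of all genes did; 1 gene, Saa3, had an unadjusted p under 0.05, and DESeq2 called 2, Saa3 and Clu, where it called 12.8% of the genes it tested. The dKO libraries without cytokines are among those by which the genes were chosen, and a high level there lowers the fold change with cytokines. Saa3 had 28537 and 17732 CPM with cytokines, against 14140 and 4899.0 CPM without (log2 fold change 1.28, SE 0.49, adjusted p = 0.186). Within replicate 1 the ratio was 2.02 and within replicate 2 it was 3.62. The libraries of the 2 groups did not overlap, yet the 2 dKO libraries without cytokines lay 2.89-fold apart. With the block, Saa3 (log2 fold change 1.43, adjusted p = 0.00216), Rarres2 (0.60, adjusted p = 0.0296) and Saa1 (0.75, adjusted p = 0.0389) passed, 3 of the 9 genes where 24% of all genes passed. For Saa3 the log2 fold change was 1.84 without both dKO replicate 1 libraries and 1.02 without both dKO replicate 2 libraries. Each dKO group then holds 1 library, so these fits do not measure the spread of dKO cells.
Lcn2 had a log2 fold change of 0.22 (SE 0.33, adjusted p = 0.755) and Hp of 0.09 (SE 0.45, adjusted p = 0.937). Clu had 16668 and 14879 CPM with cytokines, against 19521 and 19835 CPM without (log2 fold change -0.32, SE 0.15, adjusted p = 0.265). Ahsg had 118.3 and 81.8 CPM with cytokines, against 225.8 and 104.9 CPM without (log2 fold change -0.72, SE 0.47, adjusted p = 0.422).

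The dKO response minus the WT response, the genotype by cytokine interaction, is given for the 9 genes as a description. It contains the untreated dKO level with a minus sign, and the genes were chosen for high levels in dKO libraries, so the choice favours values below 0 and the counts here do not show that the responses differ. It was -2.54 on the log2 scale for Saa3 (SE 0.69), -1.30 for Lcn2 (SE 0.47) and 0.95 for Trf (SE 0.37), and below 0 for 7 of the 9 genes. In edgeR 0 of the 9 genes and 0.0% of all 15698 genes passed, with 3 of the 9 at an unadjusted p under 0.05. DESeq2 called 1 of the 9, where it called 2.82% of the genes it tested, and with the block 3 of the 9 and 6.03% of all genes passed. The untreated dKO level was compared with the treated WT level as a description. Saa3 averaged 9520 ± 6535 CPM in untreated dKO cells and 6977 ± 180.7 CPM in treated WT cells (SD, n = 2 each), and the libraries overlapped. Lcn2 averaged 12093 ± 5002 CPM in untreated dKO cells and 3667 ± 39.6 CPM in treated WT cells, and Rarres2 averaged 15.3 ± 11.7 CPM in untreated dKO cells and 0.947 ± 0.716 CPM in treated WT cells. For Lcn2 and Rarres2 both dKO libraries lay above both WT libraries.

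Other genes of the acute phase were listed with earlier results known. Of 43, 29 were tested between dKO and WT cells without cytokines, and 16 rose and 1 fell, where 13.4% of all genes rose and 9.66% fell. Their median log2 fold change was 2.16, against 0.02 over all genes. Vnn1, an ectoenzyme gene of coenzyme A breakdown, had 351.4 and 202.0 CPM in dKO cells, against 5.80 and 11.9 CPM in WT cells (log2 fold change 4.97, adjusted p = 0.00358). Itih4 and Itih2, heavy chains of inter-alpha-trypsin inhibitors, rose by 3.71 (adjusted p = 0.0305) and 3.08 (adjusted p = 0.04), and Mt2, a metallothionein gene, by 3.60 (adjusted p = 0.00415). The gene that fell was Serpina3g. Orm1, Orm2 and Orm3, which encode orosomucoids, had 0 counts in both WT libraries and did not pass; Serpina3g and the Orm genes have close copies with which reads may be shared. The count of those that rose was 8 without dKO replicate 1, 3 without WT replicate 1 and 8 without WT replicate 2.
With cytokines 14 rose and 1 fell in dKO against WT cells (18.6% and 15.4% of all genes), and the count that rose was 5 without the treated dKO replicate 1, 3 without the treated WT replicate 1 and 5 without the treated WT replicate 2. Hamp, the hepcidin gene, had 1.23 and 1.81 CPM in dKO cells with cytokines, against 0.0441 and 0 CPM in WT cells, 1 count (adjusted p = 0.0264). Hamp passed the filter on low counts through dKO libraries, which favours a rise, so its call is a description. C4b, a complement gene, had 88.8 and 23.8 CPM in dKO cells with cytokines, against 1.76 and 5.97 CPM in WT cells (log2 fold change 3.85, adjusted p = 0.0354); both genes have close copies with which reads may be shared. Among the 33 other plasma and carrier protein genes 9 were tested and 6 rose, both without and with cytokines, where 13.4% and 18.6% of all genes rose. Rbp4, Apoc1 and Fetub, among the 6, held 3, 8 and 12 counts in WT cells without cytokines. They passed the filter on low counts through dKO libraries, which favours a rise, so the 6 of 9 is a description. Serpinf1, which encodes an inhibitor of vessel growth, had 27.5 and 19.2 CPM in dKO cells, against 1.25 and 1.31 CPM in WT cells (log2 fold change 4.18, adjusted p = 0.00211). Apoc1, an apolipoprotein gene, had 2.90 and 1.66 CPM in dKO cells, against 0.0738 and 0.202 CPM in WT cells (adjusted p = 0.00965). Rbp4, the retinol-binding protein gene, had 19.6 and 10.7 CPM in dKO cells, against 0.111 and 0 CPM in WT cells, which held 3 counts (adjusted p = 0.00268). With cytokines Rbp4 had 13.7 and 10.2 CPM in dKO cells, against 0.0441 and 0.0785 CPM in WT cells, again 3 counts (adjusted p = 0.00232). Without cytokines the 6 became 3 without WT replicate 1 and 4 without WT replicate 2.

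**Figure D4:**
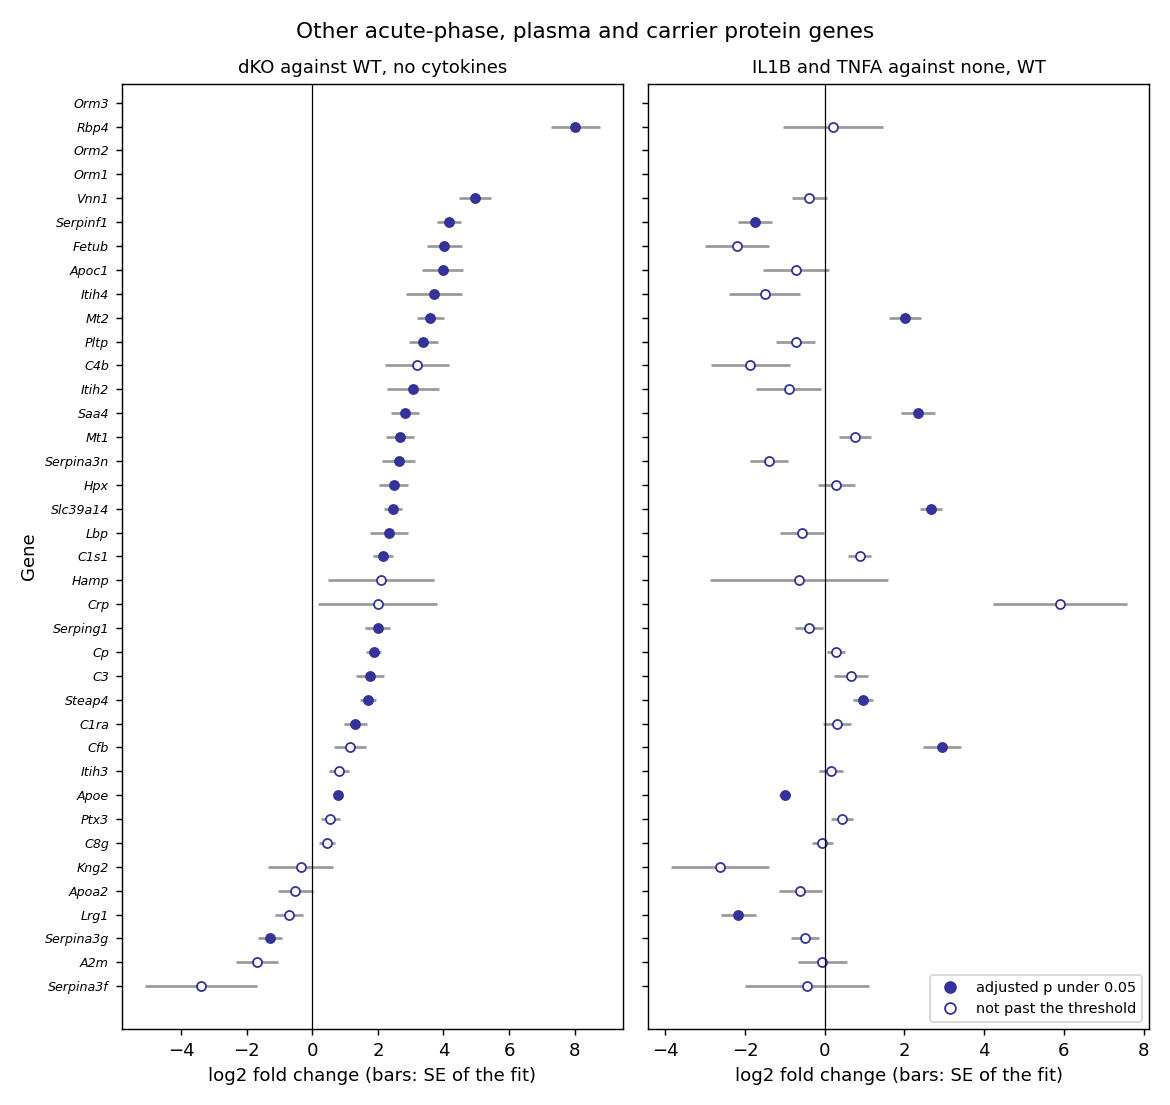
log2 fold change of the other acute-phase, plasma and carrier protein genes that were tested, dKO against WT without cytokines on the left and IL1B and TNFA against none in WT cells on the right; bars are the standard error of the fit and filled points have an adjusted p under 0.05. Each side draws 35 genes, and Orm1, Orm2 and Orm3 are left blank because a group held 0 counts. Most filled points on the left lie to the right of 0, while on the right few genes are filled.

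With cytokines in WT cells 5 of the 29 acute-phase genes rose and 1 fell, where 9.72% of all genes rose and 7.69% fell. Slc39a14, which encodes a zinc and iron transporter, had 216.5 and 220.5 CPM with cytokines, against 31.1 and 37.5 CPM without (log2 fold change 2.67, adjusted p = 0.00375). Cfb, a complement factor gene, rose by 2.94 (adjusted p = 0.0121) and Saa4, the constitutive SAA gene, by 2.33 (adjusted p = 0.0163). Lrg1, a leucine-rich glycoprotein gene, fell by 2.17 (adjusted p = 0.0262). Of the plasma and carrier protein genes 2 fell, Serpinf1 by 1.75 (adjusted p = 0.0379) and Apoe, an apolipoprotein gene, by 0.999 (adjusted p = 0.00745). Leaving out 1 of the 4 WT libraries left 1 or 2 acute-phase genes that rose and 0 that fell, and the block gave 9 and 8, where 19.3% and 18.5% of all genes rose and fell. In dKO cells, where 3.5% of all genes rose and 2.06% fell, 0 of the 29 passed in edgeR and 9 had an unadjusted p under 0.05; 6 rose and 12 fell with the block (12.7% and 11.3% of all genes), and DESeq2 called 4 that rose and 4 that fell (7.44% and 5.35% of the genes it tested).

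Inducers and regulators of the response were the next list, 31 of 35 tested. Between dKO and WT cells without cytokines 8 rose and 4 fell, where 13.4% of all genes rose and 9.66% fell. Il6, the main inducing cytokine of hepatocytes, had 55.9 and 75.6 CPM in dKO cells, against 7.87 and 5.09 CPM in WT cells (log2 fold change 3.34, adjusted p = 0.00372). Osmr, a receptor gene of the IL-6 family, had 519.8 and 483.3 CPM in dKO cells, against 182.8 and 165.8 CPM in WT cells (log2 fold change 1.52, adjusted p = 0.00129), and Tnfrsf1b, a TNF receptor gene, rose by 1.93 (adjusted p = 0.00641). Foxa2, a transcription factor gene of liver epithelium, had 1.61 and 4.03 CPM in dKO cells, against 0.148 and 0.438 CPM in WT cells (adjusted p = 0.0243). Leaving out WT replicate 1 or WT replicate 2 left 2 that rose and 0 that fell, and leaving out dKO replicate 1 left 7 and 0.
With cytokines Il6 had 1552 and 1076 CPM in dKO cells, against 101.1 and 67.2 CPM in WT cells (log2 fold change 3.96, adjusted p = 0.00191). Tnf was lower, with 0.681 and 1.02 CPM in dKO cells, against 22.1 and 16.4 CPM in WT cells (log2 fold change -4.49, adjusted p = 0.00127). Il1rn, the gene of the IL-1 receptor antagonist, had 1.5 and 1.24 CPM in dKO cells with cytokines, against 0.0882 and 0 CPM in WT cells, 2 counts (adjusted p = 0.0321). Il1rn passed the filter on low counts through dKO libraries, which favours a rise, so its call is a description. The cytokines raised Il6 in dKO cells (log2 fold change 4.32, adjusted p = 0.00579) and in WT cells (3.70, adjusted p = 0.00341), and raised Lif, an IL-6 family cytokine gene, in dKO cells (4.61, adjusted p = 0.0426) and in WT cells (3.32, adjusted p = 0.0434). In WT cells they also raised Tnf (5.38, adjusted p = 0.0012) and lowered Lifr, a receptor gene of LIF (-1.83, adjusted p = 0.0152). In dKO cells they raised Il1a, an IL-1 gene (2.80, adjusted p = 0.00445), and lowered Il6ra, an IL-6 receptor gene (-1.57, adjusted p = 0.039). Of the 31 genes, 9 rose and 2 fell with cytokines in dKO cells (3.5% and 2.06% of all genes), and 10 rose and 2 fell in WT cells (9.72% and 7.69% of all genes). Leaving out 1 of the libraries compared left 4 to 9 that rose in dKO cells and 4 to 7 in WT cells. With the block 16 rose and 8 fell in dKO cells (12.7% and 11.3% of all genes), and 13 rose and 8 fell in WT cells (19.3% and 18.5% of all genes).

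Receptors of the 9 proteins gave 14 tested genes of 19. Between dKO and WT cells without cytokines 3 rose and 1, Cd36, fell, where 13.4% of all genes rose and 9.66% fell. Lrp1, a large endocytic receptor gene, had 267.6 and 198.8 CPM in dKO cells, against 3.95 and 3.64 CPM in WT cells (log2 fold change 5.94, adjusted p = 0.000351). Slc22a17, a receptor gene of lipocalin 2, had 33.2 and 27.4 CPM in dKO cells, against 20.2 and 17.4 CPM in WT cells (log2 fold change 0.69, adjusted p = 0.0257). Ccrl2, which encodes a chemerin-binding receptor that does not signal, had 55.4 and 35.7 CPM in dKO cells, against 12.3 and 12.7 CPM in WT cells (log2 fold change 1.87, adjusted p = 0.00969). Cd36, a scavenger receptor gene, had 0 and 0.166 CPM in dKO cells, against 4.51 and 1.21 CPM in WT cells (adjusted p = 0.0216). Cmklr1, the signalling receptor gene of chemerin, had at most 0.715 CPM in any library, and Cd163, the haptoglobin receptor gene, had 0 counts in all. Tfrc, the transferrin receptor gene, had 18.1 and 26.8 CPM in dKO cells, against 36.1 and 47.9 CPM in WT cells (adjusted p = 0.0825). The 3 that rose became 1 without WT replicate 1 or WT replicate 2.
With cytokines 4 receptor genes rose and 1 fell in dKO cells (3.5% and 2.06% of all genes), and 3 rose and 3 fell in WT cells (9.72% and 7.69% of all genes). Ccrl2 had 151.0 and 105.3 CPM in dKO cells with cytokines, against 55.4 and 35.7 CPM in dKO cells without (log2 fold change 1.49, adjusted p = 0.0381). In WT cells it had 119.7 and 87.1 CPM with cytokines, against 12.3 and 12.7 CPM without (log2 fold change 3.05, adjusted p = 0.00359). Slc22a17 fell in WT cells to 7.01 and 7.93 CPM with cytokines, against 20.2 and 17.4 CPM without (log2 fold change -1.33, adjusted p = 0.00486). Tlr2, a Toll-like receptor gene, rose in dKO cells (log2 fold change 1.67, adjusted p = 0.0414) and in WT cells (2.35, adjusted p = 0.00842), as did Lrp8, a lipoprotein receptor gene, in dKO cells (3.28, adjusted p = 0.0325) and in WT cells (2.03, adjusted p = 0.0496). Scarb1, a receptor gene of high-density lipoprotein, rose in dKO cells (0.75, adjusted p = 0.0447). Between dKO and WT cells with cytokines Ager, the RAGE gene, was higher (1.30, adjusted p = 0.015) and Tlr2 was lower (-1.18, adjusted p = 0.0321). With 1 of the libraries compared left out, 0 to 3 rose in dKO cells and 1 or 2 in WT cells.

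Markers of other cells moved beside these genes. Of 14 stellate cell and fibroblast markers 12 were tested in dKO against WT cells without cytokines. There 6 rose, Pdgfra, Pdgfrb, Col1a1, Col1a2, Col3a1 and Lum, and 1 fell, Hand2, where 13.4% of all genes rose and 9.66% fell. Lrat had 2 counts in all, and Reln and Des were under 1 CPM in every library. Rgs5, which did not pass, had 2.99 and 0.873 CPM in dKO cells, against 6.76 and 9.84 CPM in WT cells. The summed level of the 14 markers was 13400 to 17822 CPM in dKO cells, against 9220 to 9349 CPM in WT cells. Dcn, which did not pass (adjusted p = 0.0796), gave most of it, with 13428 and 11699 CPM in dKO cells, against 9024 and 9175 CPM in WT cells. Pdgfra had 932.6 and 614.6 CPM in dKO cells, against 2.07 and 3.67 CPM in WT cells. Cholangiocyte markers summed to 60.7 to 136.9 CPM in dKO cells, against 44.0 to 46.8 CPM in WT cells. Spp1 was the largest part in dKO cells, with 25.6 and 73.0 CPM, against 1.48 and 0.438 CPM in WT cells. Of 7 tested 3 rose, Spp1, Sox9 and Cdh1. Krt18 and Krt19 were higher in dKO cells and did not pass. Cftr, with 5.0 and 14.2 CPM in dKO cells, against 22.3 and 21.8 CPM in WT cells, and Tspan8, with 0.536 and 3.99 CPM, against 6.57 and 8.63 CPM, were lower and did not pass. Krt7, Krt8 and Epcam were under 1 CPM in every library. Mesothelial markers summed to 160.8 to 168.1 CPM in dKO cells, against 523.9 to 571.3 CPM in WT cells. Gpm6a gave most of that sum, with 133.4 and 155.9 CPM in dKO cells, against 517.2 and 562.5 CPM in WT cells. Of 7 mesothelial markers tested 3 fell, Gpm6a, Upk1b and Slpi, and 1 rose, Igfbp6, and the median log2 fold change was 2.13. Wt1, which did not pass, had 8.0 and 4.08 CPM in dKO cells, against 0.111 and 0.876 CPM in WT cells. Of 10 neutrophil markers 3 had 0 counts in all libraries, S100a9 among them, and the sum was 5.94 to 16.3 CPM in dKO cells, against 9.16 to 20.6 CPM in WT cells. Csf3r gave most of the neutrophil sum, with 3.89 and 14.7 CPM in dKO cells, against 8.71 and 20.1 CPM in WT cells (adjusted p = 0.6). Camp, a neutrophil granule gene, was the 1 of 3 tested that passed, with 1.70 and 1.12 CPM in dKO cells, against 0.111 and 0.169 CPM in WT cells (log2 fold change 3.28, adjusted p = 0.0208). Of 15 markers of macrophages and other leukocytes 8 had 0 counts in all libraries, and Ptprc, the CD45 gene, had 1 count. The sum was 201.1 to 202.0 CPM in dKO cells, against 251.8 to 395.7 CPM in WT cells. Cd14 gave most of it, with 195.5 and 197.8 CPM in dKO cells, against 246.3 and 390.1 CPM in WT cells. Csf1r and Cd68 were above 1 CPM in every library. Of 4 tested 0 passed without cytokines, and with cytokines Cd14 was lower in dKO than in WT cells (log2 fold change -1.82, adjusted p = 0.00369). Of 4 hepatocyte markers tested 2 rose. Hpx, the hemopexin gene, had 3.53 and 1.83 CPM in dKO cells, against 0.406 and 0.539 CPM in WT cells. Pck1 had 2.99 and 0.582 CPM in dKO cells and 0 counts in WT cells, so it was tested through its dKO counts alone. The other 2, Tdo2 (log2 fold change -1.03) and Apoa2 (-0.52), were lower on average in dKO cells and did not pass. Of 19 endothelial markers tested 6 fell, Pecam1 and Emcn among them. The part of these markers in the levels of the 9 genes was not tested.

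Genes whose levels followed the 9 most closely were sought among 9943 genes over the 8 libraries, by Pearson correlation of log2 CPM, as a description. The libraries share the large split between dKO and WT. For Saa3 they were Slc39a14 (r = 0.991), Ell2 (0.990) and Spcs2 (0.988), and for Lcn2 Slc39a6 (0.998), Adora2b (0.994) and C1s1 (0.993). For Saa2 they were Ptpn2, Extl2 and Vegfa, and for Saa1 Mthfd2l, Runx1 and C3. Hp went with Frmd5, Pygl and Gpsm1, Trf with Serpinf1, Rpl38-ps2 and Ecm1, Ahsg with Thap6, Fbxo2 and Elfn1, Clu with Azin2, Lrp1 and Thap6, and Rarres2 with Adora2b, Slc39a6 and Slfn4. Among pairs of the 9 genes the lowest correlation was that of Saa3 and Trf, 0.49.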

How the data were processed

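Polyadenylated RNA of 8 libraries was sequenced. The authors' deposited table holds unnormalized counts of reads for each Ensembl gene; no scaling was seen in them. The submitters' processing notes name FastQC 0.11.5, STAR 2.7.6a and the build GRCm38, with no roles. The program that made the counts, its annotation and its strand setting were not given in the sources used here. The labels' protocols name both an unstranded and a stranded TruSeq kit without assigning them, so genes overlapping on opposite strands may share counts. Groups and replicate numbers came from the sample titles.

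The counts were fitted in edgeR 4.0.16 (R 4.3.3): TMM scaling, filterByExpr by group (15698 genes tested), a robust quasi-likelihood model and 1 coefficient per group. The model had 4 residual degrees of freedom and a common biological coefficient of variation of 24.3%. A gene could pass the filter through its counts in a single group. Listed genes near 0 in WT cells were thus tested through their dKO counts, which favours a rise in dKO cells. Each two-sided p was adjusted over all tested genes by Benjamini-Hochberg, and 0.05 was the threshold. Levels are CPM of the TMM-scaled library; ratios of 2 groups are ratios of mean CPM or, with 3 counts or fewer in a group, of summed counts with an exact 95% interval. RPKM was computed over the GENCODE M21 principal transcript, and ranks over all exons. The scripts were tested on simulated counts with known changes. Alternatives were DESeq2 1.42.0, upper-quartile scaling, no filter on low counts, only the libraries compared, replicate blocks, and leaving out libraries.

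Same-numbered libraries of a genotype deviated together from their group means (correlation 0.69 in dKO and 0.43 in WT). Their sample names also share a stem with that number. They were thus taken as pairs from the data and names, which no label states. The main fit did not use these pairs. Results with the block within genotype are given for the 9 genes, all genes, and the acute-phase and inducer lists. For the other lists they are not given. Across genotypes the correlation was 0.02 to 0.13.

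The 9 genes and all lists were chosen with earlier results of these data known; 1 gene of the acute-phase list is not reported here and is in none of its counts. Named from the lists were the 4 largest changes per list and comparison that passed with at least 1 CPM in a group, the receptors and the defining markers. Camp, Csf3r, Serpina3g, Orm1, Orm2, Orm3, Crp, Hpx, Pck1, Pdgfra and neighbouring genes were named after their values were seen. So were further markers of stellate cells, cholangiocytes and hepatocytes. For likeness the 3 most correlated genes with at least 10 CPM in a group were named. Promoter windows are from RefSeq and were printed up to the first annotated UTR; 5 of the 9 genes had one.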

Additional observations from a re-analysis of the deposited data

How the results depend on the processing

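The count of the 9 genes that passed with cytokines in WT cells was 3; it was 5 in DESeq2, 6 with the replicate block within genotype and 5 without both dKO replicate 1 libraries, and 0 to 3 over the fits that left out 1 library. In dKO cells the count was 0, with 2 in DESeq2 and 3 with the replicate block. For the interaction it was 0, with 1 in DESeq2 and 3 with the replicate block. Over all genes, the count with cytokines in WT cells was 2733 (413 to 2749 with 1 library left out, 3438 in DESeq2, 5943 with the block). In dKO cells it was 872 (130 to 731 with 1 library left out, 1852 in DESeq2, 3769 with the block, 1037 without the filter, 1 with only the dKO libraries). For the interaction it was 0 (0 to 41, 383 in DESeq2, 947 with the block). The cause of these shifts was not tested. Changes of sign occurred only in values that did not pass. With 1 library left out, the log2 fold change with cytokines in dKO cells ran from -0.743 to 2.542 for Saa1, from -0.995 to 2.137 for Saa2, from -0.149 to 0.717 for Lcn2 and from -0.32 to 1.651 for Rarres2, and that of Hp in WT cells from -0.219 to 1.673. The interaction ran from -2.174 to 0.979 for Saa2, from -0.617 to 2.512 for Ahsg and from -1.586 to 0.309 for Hp, and for Ahsg it was -0.038 without both dKO replicate 2 libraries. Of 421 cytokine tests of the 9 genes under alternatives, 370 kept their direction and their side of the threshold. With 2 libraries a group and 2 to 4 counts over both WT libraries without cytokines, ratios of Saa1, Saa2 and Rarres2 are limited by depth.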

Other observations

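Genes that lie within 100 kb of the Saa cluster and of Ahsg were looked at after the values of the 9 genes were seen. Of 7 protein-coding genes near the Saa cluster 6 were tested between dKO and WT cells without cytokines, and 3 rose (Saal1, Saa4 and Ldha) and 1 fell (Gtf2h1). Of all genes tested 13.4% rose and 9.66% fell. Saa4 had 3.26 and 3.53 CPM in dKO cells, against 0.332 and 0.607 CPM in WT cells (log2 fold change 2.84, adjusted p = 0.00843). Ldha, a lactate dehydrogenase gene, had 2167 and 1760 CPM in dKO cells, against 1180 and 1234 CPM in WT cells (log2 fold change 0.70, adjusted p = 0.0218). Near Ahsg 4 of 6 were tested, and 2 rose (Fetub and Tbccd1) and 1 fell (Dnajb11). Fetub, the gene of fetuin-B, had 2.55 and 4.45 CPM in dKO cells, against 0.111 and 0.303 CPM in WT cells (log2 fold change 4.03, adjusted p = 0.00565), while Hrg had 0 counts in all libraries. With cytokines 2 rose and 0 fell near the Saa cluster, and 2 rose and 1 fell near Ahsg (18.6% and 15.4% of all genes). Saa4 then did not differ, with 2.23 and 2.87 CPM in dKO cells, against 3.04 and 1.77 CPM in WT cells (log2 fold change 0.09, adjusted p = 0.878).

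In the list of iron handling 20 of 22 genes were tested. Between dKO and WT cells without cytokines 2 rose and 3 fell, where 13.4% of all genes rose and 9.66% fell. Fth1, the ferritin heavy chain gene, had 7151 and 4514 CPM in dKO cells, against 1478 and 2303 CPM in WT cells (log2 fold change 1.62, adjusted p = 0.0474). Bmp6, the endothelial signal that raises hepcidin, had 86.4 and 211.0 CPM in dKO cells, against 424.3 and 505.7 CPM in WT cells (log2 fold change -1.65, adjusted p = 0.0309). Leaving out WT replicate 1 or WT replicate 2 ended all 5 calls of this list in edgeR. The other 3 calls were Hfe, the hemochromatosis gene, and Aco1, the gene of iron regulatory protein 1, which were lower (log2 fold change -0.91, adjusted p = 0.0115, and -0.67, adjusted p = 0.0118), and Fbxl5, a gene of iron sensing, which was higher (0.74, adjusted p = 0.0142). With cytokines dKO cells were higher than WT cells in Blvrb, a biliverdin reductase gene (2.15, adjusted p = 0.0069), Fth1 (2.12, adjusted p = 0.0172) and Slc39a8, a metal transporter gene (1.27, adjusted p = 0.00886), and lower in Aco1 (-0.89, adjusted p = 0.00388). The cytokines lowered Slc39a8 (-1.63, adjusted p = 0.00734) and Hfe (-0.58, adjusted p = 0.0461) in WT cells and raised Aco1 (0.59, adjusted p = 0.0192), and with 1 of the WT libraries left out 0 rose and 0 or 1 fell.

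Crp, which encodes C-reactive protein, had 7.76 and 7.50 CPM in WT cells with cytokines, against 0.111 and 0.135 CPM in WT cells without (log2 fold change 5.89, adjusted p = 0.0631), a difference that did not pass.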
